A study of Mus musculus with 8 samples.

Results

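The genes described here are 7 transcripts of the naive T cell programme, S1pr1, Klf2, Lef1, Satb1, Igfbp4, St6gal1 and Dapl1, of 33696 genes in the expression matrices. They were chosen by symbol because earlier readings of the same data placed them among the genes low in expanded T cell clones. Their levels by T cell class and by clone size are therefore given as a description with no test, and only the comparison of the treatment arms was tested.

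Naive T cells recirculate between blood and lymphoid organs. They enter lymph nodes with the help of the chemokine receptor Ccr7, and leave again by following sphingosine 1-phosphate through its receptor S1pr1. The transcription factor Klf2 maintains S1pr1 and restrains proliferation, and Foxo1 in turn maintains Klf2. After activation through the T cell receptor (TCR) this programme is shut down, and Cd69 pulls the S1pr1 protein from the cell surface, which holds T cells in tissues.

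Cells came from brain tumours of mice of the genotype NestinCreERT2;Fus1;RFPTdT, a model of ZFTA-RELA ependymoma with recombination driven in Nestin-expressing neural progenitors. All mice bore tumours and were randomised at 3 weeks of age to 1 intrathecal injection of control antibody (vehicle IgG) or of mavrilimumab at 5 mg/kg, an antibody against the GM-CSF receptor alpha chain, and were followed to a humane endpoint. The study describes these libraries as tumour parenchyma sampled when tumours had recurred, while the labels' protocol gives an age of 6 to 8 weeks. Dissociated cells were stained for CD45 and Ter119, sorted and profiled with the 10x Genomics 5′ droplet assay. There were 4 expression libraries, 2 per arm, and 4 TCR libraries, of which that labelled vehicle IgG 2 was not analysed here. Tumours were pooled within each group per the study, but the sources used here do not tie a number of mice to each library, so p-values measure the spread between libraries, which may be technical.

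Levels are counts of unique molecular identifiers (UMIs) of a gene, scaled to counts per 1e6 UMIs of all cells of that class and library (CPM), with exact Poisson 95% intervals where given. These intervals cover counting error only. A second measure, the share of cells expected to show a UMI if every cell were thinned to 1000 UMIs, removes differences in depth between cells. T cells carried at least 1 UMI of Cd3e. CD8 T cells carried at least 2 UMIs of Cd8a and Cd8b1 together, regulatory T cells at least 1 UMI of Foxp3, and other CD4 T cells at least 1 UMI of Cd4 with none of Foxp3, Cd8a or Cd8b1. Of 12626 T cells, 5603 were CD8, 1898 other CD4 and 891 regulatory. T cells that met none of these gates were uneven between libraries. They numbered 63 of 236 in vehicle IgG 1, 2291 of 4202 in vehicle IgG 2, 1214 of 5288 in mavrilimumab 1 and 581 of 2900 in mavrilimumab 2. What part depth had in this was not tested.

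The libraries differed in size and depth. The library labelled vehicle IgG 1 held 69 CD8, 89 other CD4 and 14 regulatory T cells, against 1773, 110 and 28 for vehicle IgG 2, 1902, 1340 and 767 for mavrilimumab 1, and 1859, 359 and 82 for mavrilimumab 2. Median UMIs per CD8 T cell were 14625, 2731, 4689 and 12562 in the same order. Markers that the gates did not use were present to different degrees. Cd3d was in 87.5% to 97.8% of CD8 and 70.0% to 96.9% of other CD4 T cells. Trac was in 41.5% to 81.6% and 34.5% to 80.9% of the same classes. Ikzf2, which encodes Helios, was in 57.1% to 95.8% of regulatory T cells. It was also in 45.3% of other CD4 T cells of mavrilimumab 1 and 14.8% to 21.3% in the other libraries. Cd4, unused by the regulatory gate, was in 92.9%, 60.1% and 78.0% of regulatory T cells of vehicle IgG 1, mavrilimumab 1 and mavrilimumab 2. In vehicle IgG 2 only a minority of the 28 regulatory T cells held a Cd4 UMI. What part depth had in this was not tested, nor whether other cells had passed the Foxp3 gate there. Whether other CD4 T cells of mavrilimumab 1 held regulatory T cells without a Foxp3 UMI was not tested. In the CD8 T cells, the summed neural and tumour marker list reached 320 CPM in vehicle IgG 2 and 0 to 3.81 CPM in the other 3 libraries. The summed microglia list was 10.9 to 60.7 CPM, the oligodendrocyte list 121 to 365 CPM and the endothelial list 36.2 to 131 CPM. At least 2 UMIs of some other cell type's list were in 87.0% of CD8 T cells of vehicle IgG 1, 35.1% of vehicle IgG 2, 28.8% of mavrilimumab 1 and 67.0% of mavrilimumab 2. This cut took no account of depth. The lists held Pecam1, Mbp and Ccr2 among others, and whether T cells made such transcripts themselves was not tested. For the microglia or B list alone the shares were 2.90%, 2.26%, 1.47% and 13.9% in the same order. The part of transcripts of other cell types' lists in the results below was not tested. Pairs of libraries shared 0 to 9 T cell barcodes.

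The arm labels were contradicted by the TCR files. In 3 of 3 TCR files the sample name inside the file named the arm opposite to its label. By shared barcodes, the TCR library labelled vehicle IgG 1 belonged to the expression library labelled vehicle IgG 1 (182 of 193 TCR barcodes), that labelled mavrilimumab 1 to the expression library labelled mavrilimumab 2 (2491 of 2749), and that labelled mavrilimumab 2 to the expression library labelled mavrilimumab 1 (4867 of 5659). Of the kept cells, T cells were 24.0% in vehicle IgG 1, 15.7% in vehicle IgG 2, 82.5% in mavrilimumab 1 and 52.8% in mavrilimumab 2 by expression label, so both mavrilimumab libraries lay higher. Cells with neural or tumour markers were 9840 of the 26746 kept cells of vehicle IgG 2. They numbered 3, 1 and 232 in vehicle IgG 1, mavrilimumab 1 and mavrilimumab 2. The T cell share among immune cells alone was not measured. Large clones, of 4 or more cells, were absent from vehicle IgG 1 and numbered 169 in mavrilimumab 1 and 47 in mavrilimumab 2. Barcodes with paired TCR chains numbered 177, 4811 and 2453 in the same order, so the absence in vehicle IgG 1 rests on few cells. No arm was assigned from these values, and whether the labels or the names inside the files are right was not tested. Expression libraries are named by their labels throughout, and every direction between the arms given below holds for those labels only.

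Dapl1 and Klf2 are shown by their promoters, because these 2 carried, among the 6 members found in the RefSeq promoter table (GRCm38.p6), a match to a motif that few promoters hold. Each line gives the 250 bases before the transcription start, 5′ to 3′ on the gene's strand. In Dapl1 (chr2:59484403-59484652, plus strand) capitals mark the FOXO motif GTAAACA at positions -164 to -158 from the start. In Klf2 (chr8:72318812-72319061, plus strand) capitals mark a match to the MEF2 motif at positions -118 to -109.
Dapl1: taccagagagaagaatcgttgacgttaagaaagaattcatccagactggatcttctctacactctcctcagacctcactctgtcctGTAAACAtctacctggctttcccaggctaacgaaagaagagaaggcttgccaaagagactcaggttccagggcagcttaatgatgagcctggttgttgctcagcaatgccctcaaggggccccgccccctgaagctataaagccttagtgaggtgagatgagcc
Klf2: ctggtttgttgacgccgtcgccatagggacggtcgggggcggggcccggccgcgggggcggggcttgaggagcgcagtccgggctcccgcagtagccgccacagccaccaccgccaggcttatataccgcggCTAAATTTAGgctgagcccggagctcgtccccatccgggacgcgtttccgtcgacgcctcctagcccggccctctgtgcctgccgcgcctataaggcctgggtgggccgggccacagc

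Motifs were searched on both strands. Over 32851 promoter windows of this length, GTAAACA was held by 3.17%, the MEF2 motif by 2.92%, the TCF/LEF motif TTCAAAG by 4.46% and the KLF motif CACCC by 52.0%. GTAAACA was found in none of the windows of the other members, and TTCAAAG in no member's window. CACCC was found in at least 1 window of Klf2, Lef1, Igfbp4, Satb1 and St6gal1 and not in that of Dapl1. The MEF2 motif was added after the promoters had been read. These matches describe letters and not bound sites.

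S1pr1, the sphingosine 1-phosphate receptor that draws T cells out of tissue, was highest in other CD4 T cells in every library. Its level in CD8 T cells was 218 CPM in vehicle IgG 1, 78.3 in vehicle IgG 2, 65.4 in mavrilimumab 1 and 85.7 in mavrilimumab 2. Other CD4 T cells had 356, 258, 168 and 294 CPM of it in the same order. The other CD4 level was 1.63 to 3.43 times the CD8 level within the libraries, and the 2 classes did not overlap once vehicle IgG 1 was set aside.

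Klf2, the factor upstream of S1pr1, ran in the same order. In CD8 T cells it stood at 743, 274, 224 and 377 CPM for vehicle IgG 1, vehicle IgG 2, mavrilimumab 1 and mavrilimumab 2. In other CD4 T cells it stood at 1257, 885, 425 and 1228 CPM. Regulatory T cells, read in the 3 libraries with at least 20 such cells, held 441, 121 and 624 CPM in vehicle IgG 2, mavrilimumab 1 and mavrilimumab 2, each below the other CD4 T cells of the same library by 1.97 to 3.51 times.

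Lef1, which with Tcf7 encodes the nuclear partners of beta-catenin and sustains naive and memory-like T cells, was 768, 194, 122 and 261 CPM in CD8 and 917, 417, 182 and 726 CPM in other CD4 T cells. Satb1, a chromatin organiser that acts in thymocytes and in quiescent T cells, was 461, 161, 70.9 and 185 CPM in CD8 and 656, 326, 61.2 and 479 CPM in other CD4 T cells. For Satb1 the order of the classes turned in mavrilimumab 1, where CD8 was 1.16 times other CD4. Apart from that library, both factors were lower in CD8 than in other CD4 T cells.

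Igfbp4, a secreted binding protein of insulin-like growth factors, was 81.3, 44.2, 5.26 and 53.9 CPM in CD8 T cells. In other CD4 T cells it was 354, 87.2, 34.4 and 366 CPM, so that the library labelled mavrilimumab 1 was lowest in both classes. In regulatory T cells it was 68.6, 5.16 and 19.9 CPM in vehicle IgG 2, mavrilimumab 1 and mavrilimumab 2.

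St6gal1, a sialyltransferase of the Golgi, separated CD8 from other CD4 T cells without overlap. It was 73.4, 25.8, 13.9 and 33.6 CPM in CD8 and 196, 100.2, 113 and 144 CPM in other CD4 T cells, with 2.68 to 8.13 times more in other CD4 T cells within a library. Regulatory T cells held 39.2, 86.1 and 96.6 CPM in vehicle IgG 2, mavrilimumab 1 and mavrilimumab 2, above CD8 in each. The vehicle IgG 2 value rests on 4 UMIs, so its place above CD8 is uncertain.

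Dapl1, death-associated protein-like 1, kept no single order of CD8 and other CD4 T cells. It was 133, 85.6, 43.2 and 111 CPM in CD8 and 101, 71.1, 12.7 and 163 CPM in other CD4 T cells, higher in CD8 in 3 of 4 libraries. In regulatory T cells it was lower, with 1 UMI in vehicle IgG 2 (9.81 CPM, interval 0.248 to 54.6), 1 UMI in mavrilimumab 1 (0.303 CPM, interval 0.00768 to 1.69) and 16 UMIs, in 2.44% of 82 cells, in mavrilimumab 2 (22.7 CPM, interval 13.0 to 36.9).

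**Figure D1:**
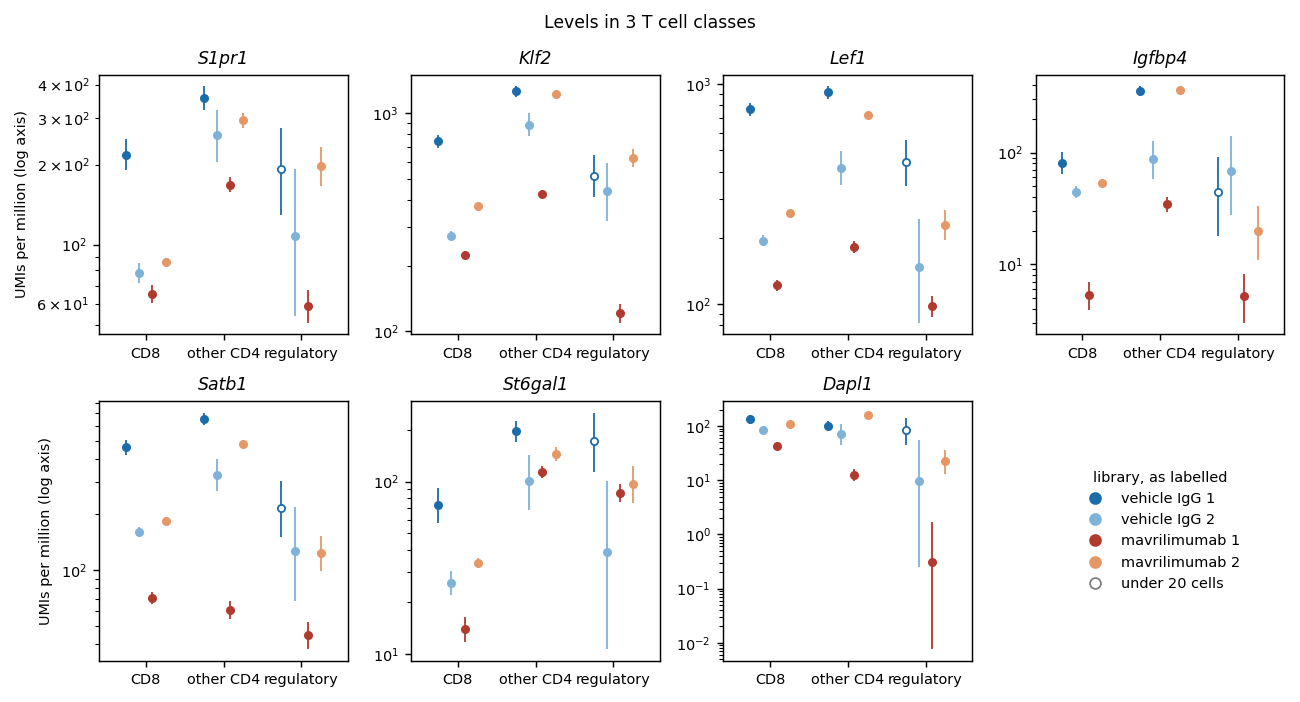
Level of each gene in CD8, other CD4 and regulatory T cells (CPM, log axis), 1 point per library with its exact Poisson 95% interval, open where a library held under 20 cells of the class. S1pr1, Klf2, Lef1, Igfbp4 and St6gal1 are highest in other CD4 T cells in all 4 libraries, and Dapl1 falls to 0.303 CPM in regulatory T cells of mavrilimumab 1.

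In all, 5 of the 7 genes (S1pr1, Klf2, Lef1, Igfbp4 and St6gal1) were highest in other CD4 T cells in each of the 4 libraries. Igfbp4 left this count among cells with at least 2000 UMIs. Among all genes with a mean of at least 20 CPM, 22.7% were lower in CD8 than in other CD4 T cells in all 4 libraries, and 13.2% were higher. In regulatory T cells all 7 members were lower than in other CD4 T cells in all 3 libraries, as were 16.8% of genes, while 22.5% were higher. Since the classes were part of how the genes were chosen, nothing is read from these counts. Of 29 tested genes of a wider naive and quiescence list, 17 were lower in CD8 in all 4 libraries and 3 were higher. Ccr7, Tcf7, Il7r and Foxo1 were among the lower ones. The median log2 difference of the list was -0.53 beside -0.06 over all genes. Of 29 tested effector and residency genes, 15 were higher in CD8, Gzmb and Itgae among them, and 2 were lower, Cd44 among them. The egress list gave 4 of 7 lower in CD8, among them S1pr4, another sphingosine 1-phosphate receptor, and Foxo1, which is on both lists. The lists too were drawn up with earlier results of these data known, and nothing is read from their counts.

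The same 5 genes were highest in other CD4 T cells when cells were compared at 1000 UMIs. For Klf2 the share of cells with a UMI at that depth was 42.2%, 21.8%, 16.5% and 28.9% in CD8 and 60.2%, 58.4%, 28.0% and 62.5% in other CD4 T cells of the 4 libraries. Summed over the 7 genes, a CD8 T cell showed 1.58, 0.778, 0.444 and 0.982 of them at this depth, and an other CD4 T cell 2.20, 1.72, 0.786 and 2.14. The library labelled mavrilimumab 1 was lowest in both.

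Across the 11 library and class sums with at least 20 cells, the members were correlated with one another to different degrees. These points share libraries and depth, and the values are descriptive. S1pr1 and Klf2 had a Pearson r of 0.96 on log2(CPM + 1), and Lef1 and Satb1 of 0.95, whereas St6gal1 and Dapl1 had an r of -0.01. Of 7126 genes, those most like S1pr1 were Klf2, Klf3 (0.95) and Tnfrsf26 (0.94), and those most like Klf2 were Klf3 (0.97), Rasgrp2 (0.97) and Atp1b3 (0.96). Lef1 was most like the transcript Gm20186 (0.99), Add3 (0.97) and Ccr7 (0.96), and Satb1 like Bach2 (0.97), Cebpz (0.96) and Pik3ip1 (0.96). Igfbp4 was most like Pik3ip1 (0.91), Bach2 (0.91) and Wdr12 (0.89), St6gal1 like Adk (0.93), Selenop (0.92) and Faah (0.92), and Dapl1 like Txk, Rpl35a and Rplp2 (each 0.96).

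Outside T cells, Dapl1 was at or near 0. B cells (359 cells), monocytes or macrophages, neutrophils, oligodendrocytes and endothelial cells showed no UMI in any library with at least 20 such cells, and the highest value elsewhere was 1.18 CPM (2 UMIs) in microglia of vehicle IgG 2. Lef1 was 1.47 to 29.6 CPM in microglia and 1.54 to 81.5 CPM in B cells, and 176 and 285 CPM in the endothelial cells of 2 libraries. The other members were shared with other cells. St6gal1 reached 118 to 221 CPM in B cells, beside 100.2 to 196 CPM in other CD4 T cells, and Klf2 145 to 960 CPM in microglia and 323 to 549 CPM in neutrophils. S1pr1 was 97.0 and 101 CPM in neural or tumour cells of the 2 libraries with at least 20 such cells, and 109 and 151 CPM in endothelial cells.

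**Figure D2:**
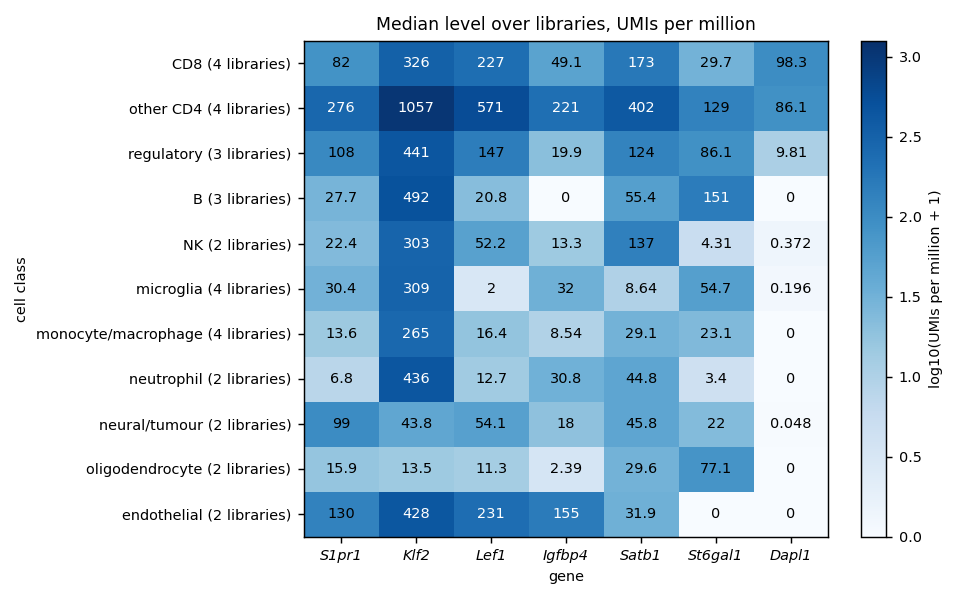
Median level over libraries with at least 20 cells of a class (CPM, printed in each cell, shaded on a log10 scale), with T cell classes in the top 3 rows and other cells sorted by marker genes below. Dapl1 is at or near 0 in every class outside T cells, and Klf2 is at 265 CPM or more in 6 of these 8 classes.

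Near-empty barcodes with under 100 UMIs, which hold free RNA, gave 39.6 to 84.5 CPM of S1pr1, 80.0 to 212 of Klf2, 50.7 to 140 of Lef1, 73.8 to 195 of Satb1, 27.6 to 164 of St6gal1, 8.34 to 24.6 of Igfbp4 and 3.56 to 26.1 of Dapl1. What share of a T cell's UMIs this RNA made up was not measured, so levels below these ranges were read as low and not as zero.

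All 7 genes were lower in CD8 T cells with a UMI of Pdcd1, which encodes the inhibitory receptor PD-1, in every library, by a median log2 ratio of -3.64 in vehicle IgG 1, -1.27 in vehicle IgG 2, -1.22 in mavrilimumab 1 and -2.17 in mavrilimumab 2. With a UMI of Gzmb, the cytotoxic protease, the medians were -2.84, -1.93, -0.66 and -2.71. In vehicle IgG 1 the cells with a UMI were 23.2% of 69 for Pdcd1 and 26.1% of 69 for Gzmb. Each is fewer than the 20 cells required elsewhere. By Cd69 the medians were -0.24 to -0.90, and 2 members in mavrilimumab 1 and 1 in vehicle IgG 1 were higher with it. For Dapl1 in mavrilimumab 1 the difference by Pdcd1 was within counting error, at 43.1 CPM with and 43.2 CPM without it. The share of all genes lower in cells with a UMI of Pdcd1, Gzmb or Cd69 was not measured. Nothing is read from these counts of members.

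A clone was taken as all cells of a library with the same paired TCR chains, and its size as the number of its sampled cells, so a clone of 1 may be larger in the tumour. The libraries labelled mavrilimumab 1 and mavrilimumab 2 held 169 and 47 clones of 4 or more cells, the largest of 157 and 21 cells. Vehicle IgG 1, with 177 paired barcodes, held none. Levels by clone size therefore rest on 2 libraries for CD8 and on mavrilimumab 1 alone for the other 2 classes, and nothing on clone size is known here for vehicle IgG 2.

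Klf2 in CD8 T cells of mavrilimumab 1 was 291 CPM in single-cell clones (668 cells), 217 in clones of 2 or 3 (291 cells) and 136 in clones of 4 or more (678 cells). In mavrilimumab 2 it was 488 (1118 cells), 132 (265 cells) and 121 CPM (277 cells). Single-cell clones stood above large ones 2.14 and 4.04 times, and the 2 libraries differed more in their single-cell clones than in their large ones.

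S1pr1 was 76.8, 79.7 and 43.5 CPM over the same sizes in mavrilimumab 1 and 108, 37.7 and 33.6 CPM in mavrilimumab 2. The 2 libraries parted at clones of 2 or 3, which were at the level of single-cell clones in the first and of large clones in the second. The levels in large clones were below those of near-empty barcodes of the same libraries (66.5 and 72.7 CPM).

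Lef1 was 171, 104 and 57.1 CPM in mavrilimumab 1 and 347, 72.8 and 54.4 CPM in mavrilimumab 2. Satb1 was 111, 51.2 and 25.6 CPM, and 238, 96.6 and 40.2 CPM. For both factors the level was lower with each step in clone size in both libraries.

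Igfbp4 was 10.6 CPM (40 UMIs) in single-cell clones of mavrilimumab 1 and had no UMI in larger ones, at least 10.9-fold lower in clones of 4 or more against a floor of 3 counts over that group. In mavrilimumab 2 it was 79.1, 5.48 and 1.72 CPM, and single-cell clones stood 46.1 times (95% interval 22.3 to 115) above large ones. St6gal1 was 20.2, 8.78 and 4.55 CPM, and 44.0, 10.7 and 8.34 CPM. With each clone weighted equally the St6gal1 difference in mavrilimumab 1 was lost (17.5 CPM in both single-cell and large clones, 1.00-fold in place of 4.44-fold). Dapl1 was 58.4, 47.6 and 28.6 CPM, and 150, 50.2 and 26.7 CPM.

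**Figure D3:**
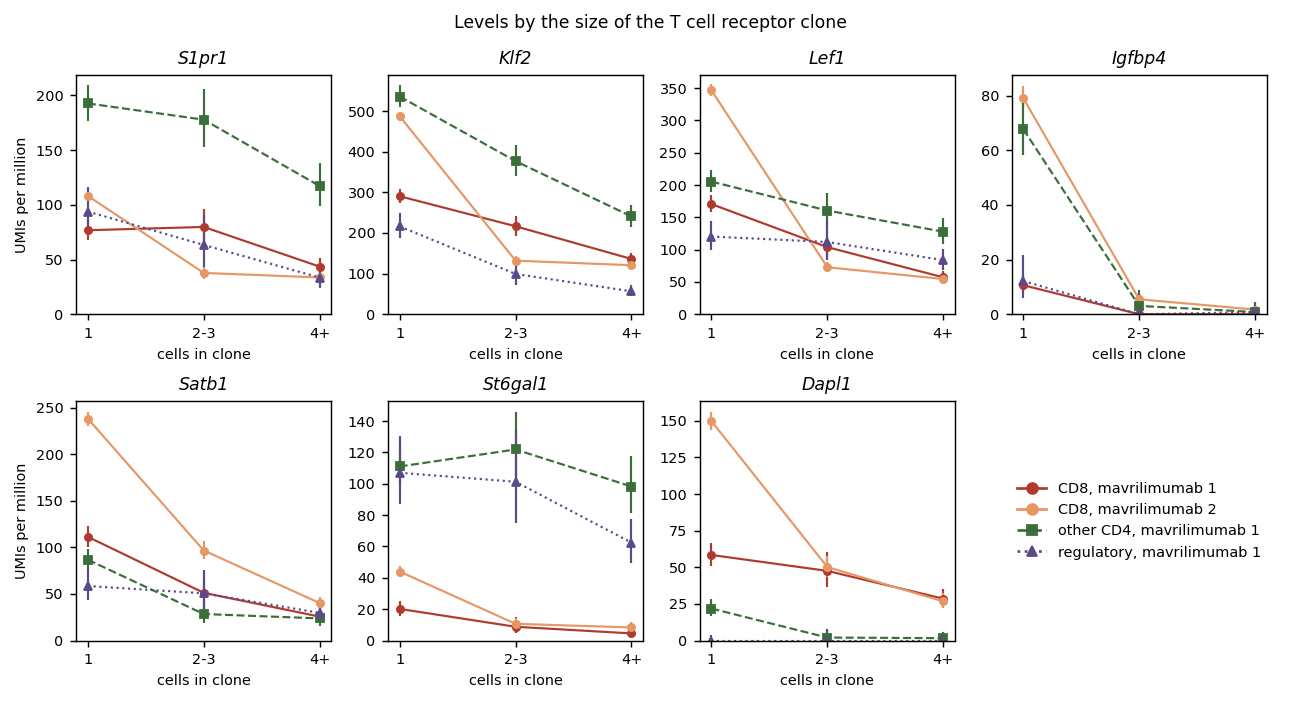
Level of each gene (CPM) by the number of cells in the TCR clone, with exact Poisson 95% intervals, for CD8 T cells of 2 libraries and other CD4 and regulatory T cells of mavrilimumab 1. Igfbp4 is at or near 0 in clones of 4 or more in all 4 series, and St6gal1 in other CD4 T cells stays between 98.3 and 122 CPM.

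In all, 6 of 7 genes were at least 2-fold lower in CD8 clones of 4 or more cells in both libraries, with S1pr1 in mavrilimumab 1 (1.76-fold) the exception. This is the contrast by which the genes had been chosen, and nothing is read from the count. Over the genes with a mean of at least 20 CPM, which St6gal1 did not reach, 0.407% were lower by that rule. Leaving out the largest CD8 clone of each library brought the count to 4 (Lef1, Igfbp4, Satb1 and St6gal1), and a mean over clones in place of cells to 3 (Lef1, Igfbp4 and Satb1). Without cells holding 2 UMIs of any other marker list the count stayed at 6, but its exception changed. In mavrilimumab 1 S1pr1 was then 2.45-fold and Dapl1 1.80-fold lower, and in mavrilimumab 2 Igfbp4 was 21.5-fold lower. At 1000 UMIs per cell the members seen in a CD8 T cell summed to 0.617, 0.437 and 0.249 with clone size in mavrilimumab 1 and to 1.28, 0.393 and 0.273 in mavrilimumab 2, where cells of large clones were the deeper ones (median 13846 against 12450.5 UMIs).

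Of the wider naive and quiescence list, 7 of 28 tested genes were lower by the same rule (Ccr7 and Il7r among them), with a median log2 ratio of -0.89 beside 0.04 over all genes. Ccr7 was 73.3, 27.8 and 12.01 CPM in mavrilimumab 1 and 194, 19.1 and 9.32 CPM in mavrilimumab 2. Of 29 effector and residency genes, 4 were higher (Pdcd1 and, named after their values were seen, Ccl5, Gzmk and Lag3), beside 0.211% of all genes. Of 7 tested egress genes none was lower or higher. The lists were drawn up with earlier results of these data known, so nothing is read from these list counts. They were not recounted without the largest clone or as a mean over clones.

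Among other CD4 T cells of mavrilimumab 1 (631, 250 and 324 cells by clone size), Klf2 was 536, 377 and 241 CPM and Satb1 86.7, 28.4 and 23.7 CPM. Igfbp4 was 67.7, 3.05 and 0.819 CPM, with 1 UMI in large clones, a ratio of 82.7 (95% interval 14.7 to 3284). Dapl1 was 21.8, 2.03 and 1.64 CPM, with 2 UMIs in large clones, a ratio of 13.3 (95% interval 3.54 to 113). S1pr1 (193, 178 and 117 CPM) and Lef1 (205, 161 and 128 CPM) were lower by less than 2-fold, and St6gal1 was 111, 122 and 98.3 CPM. In all, 4 of the 7 members were at least 2-fold lower and none higher. Over genes with a mean of at least 20 CPM, which Dapl1 did not reach here, 0.707% were lower and 1.60% higher. With each clone weighted equally 3 members were, as Klf2 went from 2.23-fold to 1.76-fold lower.

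In regulatory T cells of mavrilimumab 1 (205, 108 and 329 cells), S1pr1 was 93.8, 63.3 and 33.5 CPM and Klf2 216, 99.2 and 56.4 CPM. Lef1 was 120, 112 and 83.8 CPM, Satb1 58.5, 50.6 and 29.7 CPM and St6gal1 107, 101 and 62.5 CPM, each under 2-fold. Without cells holding 2 UMIs of any other marker list, Satb1 was 2.43-fold and St6gal1 3.01-fold lower. Without cells holding 2 UMIs of the microglia or B list, they were 2.09-fold and 2.21-fold lower. Lef1 stayed under 2-fold in both. Igfbp4 had 11 UMIs in single-cell clones and 1 in large ones, and Dapl1 had none in any clone. In all, 3 of the 7 members were at least 2-fold lower and none higher. Over genes with a mean of at least 20 CPM, which Igfbp4 and Dapl1 did not reach here, 1.03% were lower and 1.98% higher.

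Single clones varied widely. There were 16 CD8 clones of 10 or more cells in mavrilimumab 1 (416 cells) and 8 in mavrilimumab 2 (101 cells), and none of these 24 clones had an Igfbp4 UMI. In mavrilimumab 1 this says little of a single clone, since 3 counts lay above the Igfbp4 level of single-cell clones (10.6 CPM) in 15 of 16 and above that of St6gal1 (20.2 CPM) in 14 of 16. In mavrilimumab 2 the floors were 9.91 to 22.1 CPM, below the 79.1 CPM of Igfbp4 in single-cell clones. Klf2 was below the level of single-cell clones in 15 of 16 and in 8 of 8, with 0 to 418 CPM (median 159) and 17.3 to 209 CPM (median 135).

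The largest CD8 clone of mavrilimumab 1, with 149 CD8 T cells, had 2 UMIs of Klf2, 3 of S1pr1 and none of Lef1, Satb1, Igfbp4 or St6gal1 in 631090 UMIs, so that a level up to 4.75 CPM could have given none. The same cells had 14 Dapl1 UMIs (22.2 CPM) and 791 CPM of Pdcd1, the highest of the 16 clones. Without this clone, Klf2 in clones of 4 or more was 170 instead of 136 CPM and S1pr1 53.5 instead of 43.5 CPM, and single-cell clones were 1.71 and 1.43 times higher.

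In 3 of these clones Dapl1 was high where Klf2 and Lef1 were low. Clones of 24 and 14 cells in mavrilimumab 1 had no UMI of Klf2 or Lef1 (floors of 21.3 and 39.9 CPM) and yet 149 and 173 CPM of Dapl1, the highest values of the 16 clones, with 610 and 692 CPM of Pdcd1. In mavrilimumab 2, a clone of 11 cells had 152 CPM of Dapl1, at the level of single-cell clones, with 63.2 CPM of Klf2 and no Lef1. Dapl1 had no UMI in 10 of the 16 and 3 of the 8 clones. In 5 of the 16, 3 counts lay above the Dapl1 level of single-cell clones (58.4 CPM), so their zeros say little. The 3 clones high in Dapl1 were singled out after their values were seen.

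**Figure D4:**
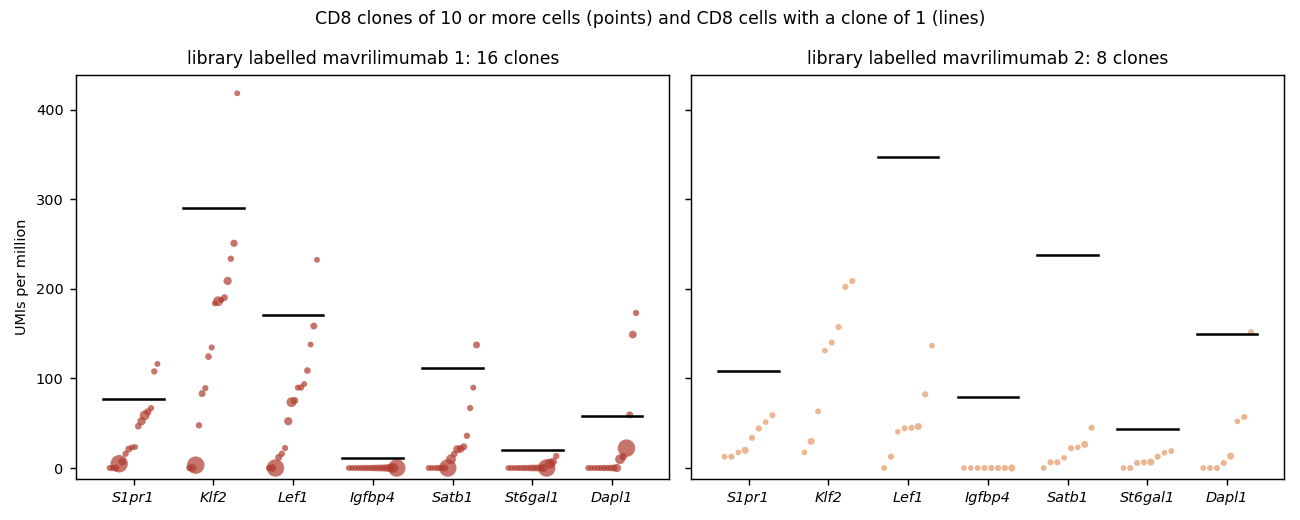
Level of each gene (CPM) in CD8 clones of 10 or more cells, 1 point per clone with its area growing with cell number, and black lines at the level of CD8 T cells whose clone had 1 cell. For Klf2, 15 of 16 and 8 of 8 points lie below the line, Dapl1 reaches 149 and 173 CPM in mavrilimumab 1, and the zeros of Igfbp4 and St6gal1 there come mostly from clones too shallow to show the level of the line. For Dapl1, 5 of the 16 clones there were too shallow in the same way.

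The 2 other CD4 clones of 10 or more cells in mavrilimumab 1 had 15.9 and 144 CPM of Klf2, no Igfbp4 and no Dapl1, yet 71.3 and 101 CPM of St6gal1. In the 9 regulatory clones of that size, St6gal1 was 0 to 185 CPM (median 73.6) and Klf2 0 to 218 CPM (median 47.3).

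The labelled arms were compared within each class over summed counts with edgeR's quasi-likelihood test, to ask whether the antibody moved the naive programme. No member passed an FDR of 0.05 in any class. In CD8 T cells the order was vehicle IgG 1, mavrilimumab 2, vehicle IgG 2, mavrilimumab 1 from high to low for each of the 7 genes, so the arms overlapped for all. The log2 difference, mavrilimumab minus vehicle IgG, was below 0 for 7 of 7, from -0.40 for Dapl1 (SE 0.54, adjusted p = 0.956 by edgeR with Benjamini-Hochberg adjustment) to -1.24 for Lef1 (SE 0.77, adjusted p = 0.919), with a median of -0.92 beside -0.02 over all genes tested. The genes were chosen as low in expanded clones, and clones of 4 or more cells were found only in the mavrilimumab libraries. Such clones were absent from vehicle IgG 1 and not read in vehicle IgG 2. The comparison of the arms is thus not free of that choice, and its part in these differences was not tested. Without cells holding 2 UMIs of any other cell type's marker list, which left out 28.8% to 87.0% of CD8 T cells, S1pr1 (0.25), Lef1 (0.075) and Klf2 (0.27) were above 0. That rule left 9 CD8 T cells in vehicle IgG 1, under the minimum of 20. The library dropped out, and vehicle IgG 2 alone stood for that arm. With all libraries and cells, none of the 7 had an unadjusted p under 0.05, and DESeq2 called none of them. Over all 12334 genes, edgeR called 0%, with 541 at an unadjusted p under 0.05, and DESeq2 on the same genes called 27. No member lay wholly below the vehicle IgG libraries in both mavrilimumab libraries, which 18.0% of genes did, and none wholly above, which 14.0% did. Without vehicle IgG 1, which held 69 CD8 T cells, 3 of 7 were below 0 and the median was 0.0046.

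For other CD4 T cells 6 of 7 differences were below 0, from -0.76 for Satb1 (SE 0.95) to 0.10 for Dapl1 (SE 1.10), with adjusted p = 1.00 for each by edgeR, and the arms overlapped for all 7, while 18.8% of genes lay wholly lower with mavrilimumab and 11.8% wholly higher. The test called 0% of 10400 genes, with 306 at an unadjusted p under 0.05 and 13 called by DESeq2 on the same genes, none of them a member. Without mavrilimumab 1 all 7 differences were above 0, and without mavrilimumab 2 all 7 were below. For each of the 7 genes the 2 libraries labelled mavrilimumab differed from each other by more than the fitted difference between the arms.

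In regulatory T cells vehicle IgG 1 was left out for its 14 cells, which left 1 library of 28 cells against 2. Most of the 28 cells had no Cd4 UMI, unlike those of the mavrilimumab libraries. Whether the class held the same kinds of cell in both arms was not tested. The spread in this fit comes from the 2 mavrilimumab libraries alone, and the lone vehicle IgG library is assumed to vary like them. On that footing 0.663% of 9203 genes passed. Igfbp4 had a log2 difference of -2.64 (SE 1.10, adjusted p = 0.426 by edgeR) on 7 UMIs in vehicle IgG 2, and St6gal1 of 1.26 (SE 0.48, adjusted p = 0.417) on 4 UMIs. Neither passed, and no member was called by DESeq2. Without the filter on low counts Igfbp4 passed (-2.53, adjusted p = 0.0404 by edgeR), as did 4.55% of 17266 genes, again with no replicate of vehicle IgG. Both mavrilimumab libraries lay below the vehicle IgG library for 2 members and above it for 1, beside 40.0% and 44.7% of genes.

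**Figure D5:**
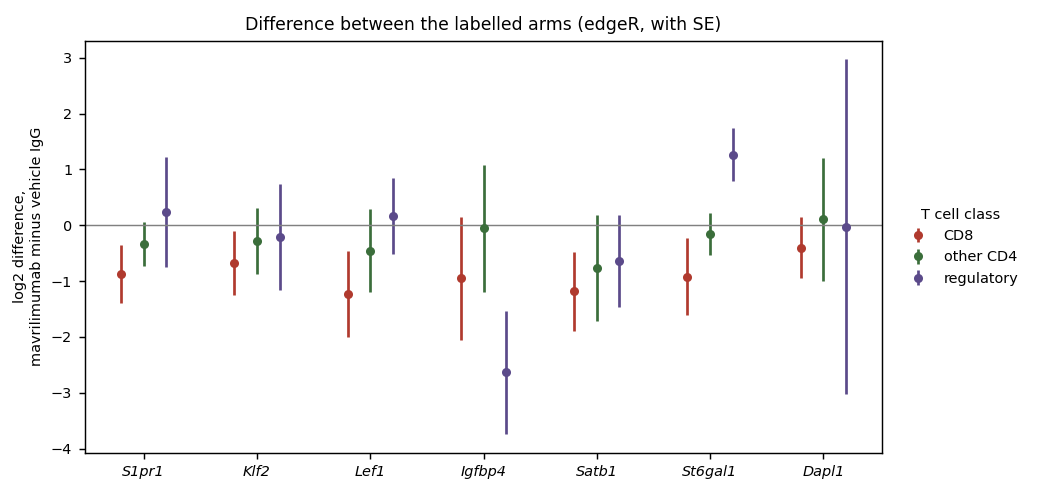
Log2 difference between the labelled arms (mavrilimumab minus vehicle IgG) with its SE for each gene in 3 T cell classes, from edgeR on summed counts of 2 against 2 libraries, or 1 against 2 for regulatory T cells. All CD8 points lie below 0, with none past an FDR of 0.05.

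Whether the arms differed by another amount in CD8 than in other CD4 T cells was tested as an interaction with library as a block. It passed for 0.0446% of 13462 genes and for no member. The 2 with an unadjusted p under 0.05 were Igfbp4, at -1.14 (SE 0.32, adjusted p = 0.632 by edgeR), and St6gal1, at -0.95 (SE 0.33, adjusted p = 0.937). Leaving out a mavrilimumab library leaves 1 in that arm, so that the spread comes from the 2 vehicle IgG libraries alone. In such fits 3 members passed without mavrilimumab 2 (St6gal1 at -1.42, Dapl1 at 1.39 and Satb1 at 0.91), beside 0.783% of 13920 genes. Lef1 passed without mavrilimumab 1 (-0.92), beside 0.815% of 12889 genes. With no filter on low counts Igfbp4 passed (-1.10), beside 0.662% of 22663 genes.

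Of the lists, none of 30 naive and quiescence, 12 egress and 33 effector genes tested in CD8 T cells passed, with median log2 differences of -0.49, -0.11 and 0.60 beside -0.02 over all genes tested. Among other CD4 T cells none of 30, 9 and 30 passed, with medians of -0.09, -0.18 and 0.23 beside -0.0074 over all genes tested, and in regulatory T cells none of 29, 9 and 29, with medians of 0.24, 0.20 and 0.48 beside 0.11 over all genes tested.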

How the data were processed

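Droplet expression of brain tumour cells was measured in 4 libraries and TCR contigs in 4, of which 3 were analysed here. The deposited matrices hold raw UMI counts per gene and barcode, unfiltered. The submitters' processing notes name Cell Ranger 7.1.0, Scanpy 1.8.2 and mm10, while the matrix headers name a later Cell Ranger release, so no coordinates were taken from the data. The members, gene lists and gates were chosen with earlier results of these data known. The filter required 1000 UMIs or more, between 200 and 6000 detected genes, and no more than 10% of UMIs from mitochondrial genes, which left 39632 cells. Cells that met both the CD8 and the Foxp3 gate were left out of both. No doublet caller was run, and cells with other cells' markers were removed as an alternative. Named genes were the members, 12 fixed list genes (1 is not reported here), list genes past the FDR and the 3 genes most alike to each member. Counts were summed per library and class with at least 20 cells, filtered with filterByExpr, scaled by TMM and tested with edgeR 4.0.16 (quasi-likelihood, Benjamini-Hochberg, FDR 0.05), with DESeq2 1.42.0 as an alternative. The test was checked on simulated data. TCR files hold assembled contigs, and cells were joined to expression by barcode. Alternatives added after seeing the data were a narrower doublet rule, DESeq2 on the filtered genes, the largest clone left out and the MEF2 motif. Python 3.11.15, numpy 2.4.6, scipy 1.17.1 and pandas 2.3.3 were used.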

Additional observations from a re-analysis of the deposited data

How the results depend on the processing

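The number of genes past an FDR of 0.05 depended on the setting. For CD8 T cells it was 0 under edgeR and 27 by DESeq2, both on the filtered genes and on all genes with a count. For other CD4 T cells (0) it was 372 with no filter on low counts, 15 by DESeq2 on all genes with a count and 13 on the filtered genes, 3 with at least 2 Cd4 UMIs and 0 to 10 with 1 library left out. For regulatory T cells (61) it was 97 with RLE size factors, 786 with no filter, 263 and 114 by DESeq2 on these gene sets, 109 at 2000 UMIs per cell, 95 at 5% mitochondrial UMIs and 112 without cells holding 2 UMIs of the microglia or B list. For the interaction (6) it was 3 with RLE, 150 with no filter and 0 to 109 with 1 library left out. No member passed in CD8 (lowest adjusted p = 0.282 over edgeR and DESeq2 settings) or other CD4 T cells (0.554). With replicate number as a block, 0 genes passed in CD8 and 1 in other CD4 T cells. Same-numbered libraries shared only a number. Their deviations from the arm means had an r of 0.44 in CD8 and 0.19 in other CD4 T cells. With 2 libraries per arm both pairs must give the same r, so it cannot show whether libraries were paired. Leaving out a library, the block and the broad doublet rule could not be fitted for regulatory T cells.

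Members with a turned sign were, in CD8 T cells, S1pr1 (0.25), Lef1 (0.075) and Klf2 (0.27) without cells holding 2 UMIs of any other marker list, a rule that removed 28.8% to 87.0% of CD8 T cells. That rule also dropped vehicle IgG 1, which kept 9 CD8 and 14 other CD4 T cells. Vehicle IgG 2 then stood alone for its arm. With 1 library left out, log2 differences in CD8 T cells ran from -1.43 to 0.049 for S1pr1, -1.95 to 0.089 for Lef1, -1.20 to 0.24 for Klf2, -1.78 to 0.0046 for St6gal1 and -1.30 to 0.20 for Dapl1. In other CD4 T cells Dapl1 was -0.94 under the replicate block, and Igfbp4 was 0.0053 with no filter and 0.64 under the doublet rule. Left-out libraries gave -2.76 to 1.03 for Dapl1, -0.87 to 0.061 for S1pr1, -1.86 to 0.28 for Lef1, -1.32 to 0.33 for Klf2, -2.69 to 1.36 for Igfbp4, -0.49 to 0.48 for St6gal1 and -2.997 to 0.090 for Satb1. Dapl1 in regulatory T cells was 0.024 with no filter, 0.30 by DESeq2 (0.21 on the filtered genes), 0.11 with cells of both gates kept and 0.020 without microglia or B list cells. Interaction values ran from -0.97 to 1.39 for Dapl1, -0.92 to 0.056 for S1pr1, -0.92 to 0.017 for Lef1, -0.61 to 0.28 for Klf2 and -0.71 to 0.91 for Satb1. Of the members at least 2-fold lower in large clones, the mean over clones left 3 in CD8 T cells and 3 of 4 in other CD4 T cells, and both doublet rules gave 5 in regulatory T cells, against 6 in CD8 and 3 in regulatory T cells. The cause of these differences was not tested.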
